A study of Mus musculus with 9 samples.

Results

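Myostatin (Mstn), the related ligands Gdf11, Gdf15, Inhba and Inhbb, the follistatin genes Fst, Fstl1 and Fstl3, and the type II receptors Acvr2a and Acvr2b were followed in mouse quadriceps muscle and heart. These 10 genes were taken by name from 24537 gene names, and they stand for 14 of the 35745 RefSeq transcripts counted in sham heart and sham quadriceps. The table of sham and TAC quadriceps held 587 genes of secreted proteins with 1 transcript each, and 4 of the 10 were among them (Mstn, Gdf11, Fst and Fstl1). The other 6 were not analysed here after TAC.

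All mice were C57Bl6 wild-type animals by the labels (male C57Bl/6JCrl in the study's methods), operated at an age of 8 weeks by the sample labels. They received either a transverse aortic constriction (TAC), a narrowing of the aortic arch that puts the left ventricle under pressure overload, or a sham operation, and tissue was taken 12 weeks later. The 9 RNA sequencing libraries fell into groups of 3, namely sham heart, sham quadriceps and TAC quadriceps. Heart after TAC was not analysed here, so the heart values are those of sham mice. The labels do not say whether heart and quadriceps came from the same mice, or that each library is a mouse of its own, and p-values measure the spread between these libraries.

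Library totals ran from 23383452 to 38382751 counts in the sham libraries and were 48614494 and 48999600 in TAC libraries 1 and 2. The third TAC library is numbered 4 in the table, and no total was used for it. In the sham tissues, all 5 skeletal muscle fibre markers were higher in quadriceps and all 5 cardiomyocyte markers were higher in heart, so the libraries carried the markers of their labelled tissues. Of the cardiomyocyte markers, the atrial light chain Myl7 had 2075, 164 and 3 counts in heart libraries 1, 2 and 3. The adipocyte markers, summed, ranged from 14.3 to 115 counts per 1e6 library counts (CPM) in sham quadriceps and from 0.419 to 1.53 CPM in heart.

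Myostatin is a secreted ligand of the TGF-beta family, made mainly by skeletal muscle, and it limits muscle growth. It is cut from a precursor and held latent by its prodomain, then binds ACVR2B or ACVR2A together with a type I receptor, which phosphorylates SMAD2 and SMAD3. GDF11 is its closest relative, activins are dimers of the INHBA and INHBB subunits that use the same type II receptors, and follistatin and FSTL3 bind these ligands and keep them from the receptors. FSTL1 shares the follistatin-like fold but is not known chiefly as an activin trap, and GDF15 signals through a receptor of its own, GFRAL with RET.

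The promoters of Mstn, Gdf11 and Fstl1 are shown because Mstn was the member that differed most between the tissues, Fstl1 the one that differed most after TAC with TMM, and Gdf11 is the nearest relative of Mstn. Each covers 250 bases before and 50 bases after the start site of its entry, 5′ to 3′, from RefSeq on GRCm38.p6, and 9 of the 10 genes had an entry. For Fstl1 that site lies inside the gene as annotated by GENCODE vM21, which begins at chr16:37776873. Most of the Fstl1 window is therefore within the gene. The capitals mark E-boxes, the letters CANNTG that myogenic factors of the MyoD family can bind. Mstn is on the plus strand at chr1:53061390-53061689, Gdf11 on the minus strand at chr10:128891669-128891968 and Fstl1 on the plus strand at chr16:37776805-37777104.
Mstn: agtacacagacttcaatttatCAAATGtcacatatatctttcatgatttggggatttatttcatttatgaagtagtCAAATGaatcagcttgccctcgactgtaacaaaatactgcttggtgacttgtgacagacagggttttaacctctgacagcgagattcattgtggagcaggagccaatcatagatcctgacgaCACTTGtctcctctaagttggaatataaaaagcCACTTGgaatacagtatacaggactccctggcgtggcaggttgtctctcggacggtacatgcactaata
Gdf11: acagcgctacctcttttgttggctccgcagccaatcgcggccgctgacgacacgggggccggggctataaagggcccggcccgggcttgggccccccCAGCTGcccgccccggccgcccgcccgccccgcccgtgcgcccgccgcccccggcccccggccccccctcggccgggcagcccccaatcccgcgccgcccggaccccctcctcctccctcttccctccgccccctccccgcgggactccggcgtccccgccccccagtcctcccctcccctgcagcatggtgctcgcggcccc
Fstl1: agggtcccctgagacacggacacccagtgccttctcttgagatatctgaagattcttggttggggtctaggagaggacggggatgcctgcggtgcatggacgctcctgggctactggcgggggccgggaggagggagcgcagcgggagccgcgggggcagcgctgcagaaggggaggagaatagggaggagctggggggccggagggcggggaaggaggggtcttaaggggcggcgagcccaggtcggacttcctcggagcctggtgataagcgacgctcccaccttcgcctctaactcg

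The Mstn window held 4 E-boxes, and 6.49% of 32851 mouse promoters of the same length held at least as many. Both strands were searched, and 72.3% of promoters held at least 1 E-box. The Mstn window also held TATAAA, 29 bases before the start, a sequence found in 13.6% of promoters. The Gdf11 window held 1 E-box, spelled CAGCTG, which 16.3% of promoters contain and which is itself one form of CANNTG. It also held TATAAA, 185 bases before the start. The Fstl1 window held neither an E-box nor TATAAA, and a missing match says only that these letters are not in that window.

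In the GENCODE vM21 annotation of GRCm38, Mstn spans chr1:53061640-53068079, Gdf11 chr10:128882295-128891718, Gdf15 chr8:70629393-70632456, Inhbb chr1:119415465-119422248 and Fstl1 chr16:37776873-37836514, and no other gene overlaps these 5. The remaining members share bases with a gene on the opposite strand. They are Inhba (chr13:16011851-16031621), Fst (chr13:114452290-114458951), Fstl3 (chr10:79777272-79782630), Acvr2a (chr2:48814109-48903269) and Acvr2b (chr9:119402118-119434995). Whether the counting used strand is not given in the sources used here, so reads of Fstl3 and Prss57, or of Acvr2a and Orc4, might not be told apart where they overlap.

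To see which genes of the system are used by skeletal muscle and which by the heart, sham quadriceps was compared with sham heart. Mstn was the member that differed most between the tissues, with Gdf11, Fst and both type II receptors also higher in quadriceps, while Inhbb, Fstl1, Fstl3 and Gdf15 were higher in heart. Of the 10 members, 5 were higher in quadriceps, 4 were lower and 1 (Inhba) was not called at an adjusted p under 0.05 (edgeR quasi-likelihood test, Benjamini-Hochberg adjusted over 24280 transcripts). Of all transcripts tested, 32.2% were higher in quadriceps and 34.4% were lower, so a difference between these tissues was common. The libraries were scaled with TMM, which assumes that most transcripts do not differ. Scaling by the library totals instead moved the median log2 fold change of all transcripts from -0.06 to -0.80. Then 5 members were higher and all the other 5 lower, against 13.3% and 62.6% of all transcripts, and none of the 10 changed direction. For 9 of the 10 members, all but Inhba, the 3 libraries of one tissue lay apart from the 3 of the other. Of all transcripts tested, 72.6% did so.

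**Figure D1:**
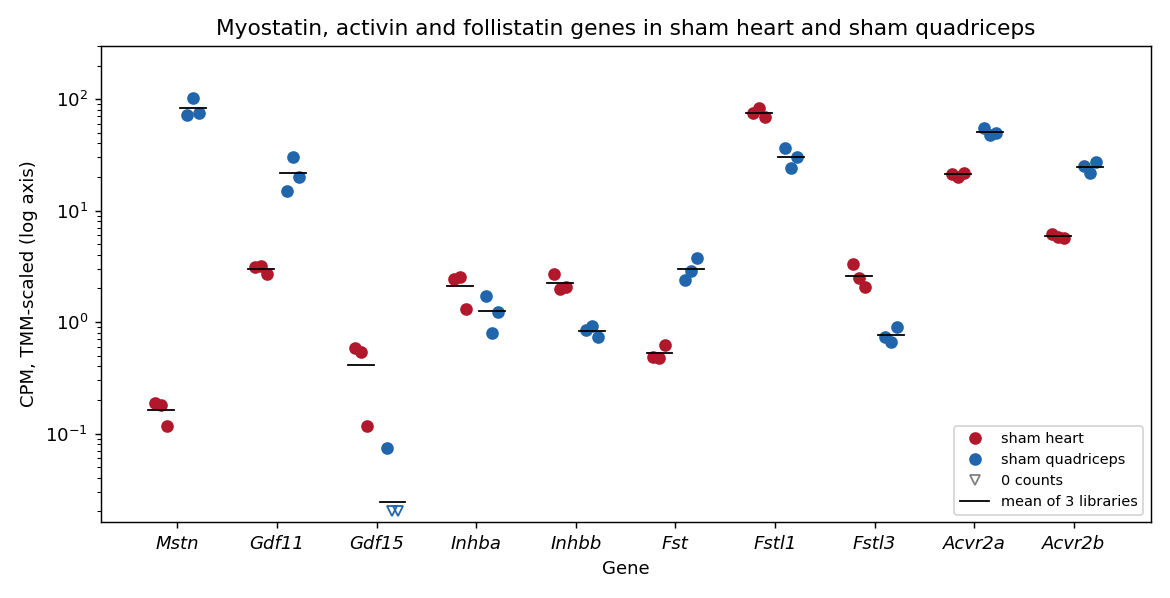
CPM of the 10 genes (log axis, TMM-scaled, 1 transcript a gene) in the 3 sham heart and 3 sham quadriceps libraries, with the mean of each group as a line and libraries with 0 counts as open triangles at the foot. Mstn lies at 0.116 to 0.189 CPM in heart and 72.2 to 102 CPM in quadriceps, and Inhba is the one gene whose groups overlap.

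Of the ligands, Mstn was counted 9, 9 and 5 times in heart and 1965, 2430 and 1336 times in quadriceps. It was near the floor of detection in every heart library and abundant in every quadriceps library. The levels were 0.161 ± 0.039 CPM in heart and 83.1 ± 16.1 CPM in quadriceps (SD, n = 3), a log2 fold change of 8.96 (SE 0.23, adjusted p = 4.03e-09). By log2 fold change it ranked 99 of the 24280 transcripts.

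Gdf11, which like Mstn acts through the type II receptors, had 149, 161 and 116 counts in heart and 409, 723 and 356 counts in quadriceps. Every quadriceps library was above every heart library, with library 2 the highest. The level rose from 3.01 ± 0.27 CPM in heart to 21.8 ± 7.73 CPM in quadriceps (SD, n = 3), a log2 fold change of 2.85 (SE 0.24, adjusted p = 6.29e-06).

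Gdf15, a stress-induced ligand, had 28, 27 and 5 counts in heart and 2, 0 and 0 counts in quadriceps. It was at or under 3 counts in every quadriceps library, and heart library 3 was far below the other two. Measured against a floor of 3 counts per library, heart was at least 3.06-fold higher. The edgeR test, which does not use the floor, gave an adjusted p of 0.0102. Without heart library 1 or 2 it had too few counts to be tested. A second Gdf15 transcript, which shares its reads, gave at least 2.80-fold. Beside these, Myl7 had 2075, 164 and 3 counts in heart libraries 1, 2 and 3. Nppa, another of the cardiomyocyte markers, had 21763, 20012 and 8000 counts in these libraries. The part of atrial tissue in the Gdf15 level was not tested.

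Inhba and Inhbb encode the subunits of activin A and activin B. Inhba had 117, 128 and 56 counts in heart and 47, 19 and 22 counts in quadriceps, and after scaling heart library 3 (1.30 CPM) lay below quadriceps library 1 (1.73 CPM). The groups therefore overlapped, and the log2 fold change of -0.73 (SE 0.34) did not pass the test (adjusted p = 0.0782). The call turned with the processing: Inhba was lower in quadriceps with library totals (adjusted p = 0.00694) with limma on RPKM (adjusted p = 0.00901), without heart library 3 (adjusted p = 0.0190), without quadriceps library 1 (adjusted p = 0.0325) and with the replicate number as a block (adjusted p = 0.0434).

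Inhbb had 128, 99 and 89 counts in heart and 23, 22 and 13 counts in quadriceps. No quadriceps library reached the lowest heart library. The level fell from 2.24 ± 0.39 CPM to 0.833 ± 0.093 CPM (SD, n = 3), a log2 fold change of -1.41 (SE 0.22, adjusted p = 0.000336).

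Of the ligand binders, Fst is the classical follistatin. Its transcript with the most counts had 23, 24 and 27 counts in heart and 65, 68 and 67 counts in quadriceps. The quadriceps libraries lay close together and all above heart, and the log2 fold change was 2.49 (SE 0.24, adjusted p = 1.59e-05). The other Fst transcripts, 2 in number, had nearly the same counts, since all 3 share reads, and they are no separate evidence.

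Fstl1, a secreted glycoprotein of stromal and muscle cells, had 3560, 4175 and 2949 counts in heart and 994, 573 and 534 counts in quadriceps. Heart was the higher tissue in every library. The level was 75.5 ± 7.18 CPM in heart and 30.2 ± 6.30 CPM in quadriceps (SD, n = 3), a log2 fold change of -1.32 (SE 0.16, adjusted p = 5.60e-05). Of the 5 fibroblast markers, 3 were lower in quadriceps too, and their summed level ranged from 547 to 612 CPM in heart and from 383 to 535 CPM in quadriceps. All 4 endothelial markers were lower in quadriceps, from 404 to 431 CPM in heart against 119 to 138 CPM, as were 4 of 5 macrophage markers, from 88.2 to 90.2 CPM against 37.0 to 58.3 CPM. The part of these cell types in the lower Fstl1, Inhbb and Fstl3 was not tested. In whole tissue, fewer cells of a type and less RNA per cell cannot be told apart.

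Fstl3, a follistatin-like binder of activins and myostatin, had 157, 125 and 88 counts in heart and 20, 16 and 16 counts in quadriceps. The groups lay well apart. The log2 fold change was -1.78 (SE 0.25, adjusted p = 0.000195), in the direction opposite to that of Fst.

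Both type II receptors were higher in quadriceps. Acvr2a had 1020, 1016 and 930 counts in heart and 1513, 1140 and 879 counts in quadriceps, that is 21.1 ± 0.78 CPM and 51.0 ± 4.15 CPM after TMM scaling (SD, n = 3). Scaling set the size of this difference: the log2 fold change was 1.27 (SE 0.10, adjusted p = 4.03e-06) with TMM and 0.53 (SE 0.12, adjusted p = 0.00431) with library totals. Acvr2b, the receptor with the higher affinity for myostatin, had 292, 292 and 245 counts in heart and 687, 516 and 479 counts in quadriceps. All 3 quadriceps libraries exceeded heart before any scaling, and the log2 fold change was 2.06 (SE 0.12, adjusted p = 4.36e-07). Its second transcript had identical counts.

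The share of Acvr2b relative to Acvr2a also differed, a ratio that no scaling of the libraries can change. The ratio of Acvr2b to Acvr2a counts per base was 0.153, 0.154 and 0.141 in heart and 0.243, 0.242 and 0.292 in quadriceps. The tissues did not overlap, and the log2 difference of 0.79 had a two-sided exact permutation p = 0.1, the smallest that 3 against 3 libraries allow (adjusted p = 0.129 over the 9 ratios computed). At a threshold like the one the study used, a log2 difference of 2 or more at an unadjusted p under 0.05, the members higher in quadriceps were 4 (Mstn, Gdf11, Fst and Acvr2b) and the member lower was 1 (Gdf15). This held for 7.00% and 8.64% of all transcripts. The Gdf15 estimate of -3.70 rested on quadriceps counts of 2, 0 and 0, and its floor bound of 3.06-fold does not by itself reach the threshold.

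Levels of different genes were compared per transcript length, as RPKM, the counts divided by transcript length and library total. In sham quadriceps the order began with Mstn at 23.6 ± 3.26 RPKM, followed by Acvr2a at 6.97 ± 1.08, Fstl1 at 6.55 ± 1.83, Gdf11 at 2.84 ± 0.83 and Acvr2b at 1.80 ± 0.28 RPKM (SD, n = 3). Acvr2a and Fstl1 overlapped between libraries. Below them came Fst at 0.808 RPKM and Fstl3 at 0.305 RPKM, then Inhba at 0.155 and Inhbb at 0.151 RPKM, which overlapped as well, and Gdf15 at 0.0132 RPKM.

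In sham heart the order began with Fstl1 at 27.2 ± 2.78 RPKM, followed by Acvr2a at 4.83 ± 0.15 and Fstl3 at 1.74 ± 0.41 RPKM (SD, n = 3). Acvr2b (0.721 RPKM), Inhbb (0.684 RPKM) and Gdf11 (0.670 RPKM) followed, each overlapping its neighbour. Inhba (0.428 RPKM), Gdf15 (0.348 RPKM) and Fst (0.241 RPKM) likewise overlapped in turn. Mstn came last at 0.0776 ± 0.019 RPKM, below the range of every other member. The ratio of Mstn to Gdf11 counts per base was accordingly 0.130, 0.121 and 0.0930 in heart and 10.4, 7.25 and 8.10 in quadriceps.

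Of the 27 other genes chosen from the same pathway, 22 had enough counts for a test. With TMM, 8 were higher in quadriceps, 9 were lower and 5 were not called, where 32.2% of all transcripts were higher and 34.4% lower. With library totals the split was 5, 15 and 2, where 13.3% of all transcripts were higher and 62.6% lower. Their median log2 fold change was -0.11 with TMM, beside -0.06 for all transcripts, and -0.86 with library totals, beside -0.80. As a list, the pathway genes were thus near the background of this comparison.

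Of the receptors, the type I receptor genes Acvr1b (log2 fold change 1.45, SE 0.13) and Tgfbr1 (1.19, SE 0.11), which carry myostatin and activin signals, were higher in quadriceps with both scalings. Acvr1c, a type I receptor known from fat, had 4, 0 and 2 counts in heart and 105, 16 and 8 counts in quadriceps (adjusted p = 0.00158). Its count was carried by quadriceps library 1, which also had the most Adipoq counts (1183, against 425 and 94), and the part of adipocytes in this was not tested. Acvr1 changed direction with the scaling, from 0.34 with TMM to -0.42 with library totals.

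The signal carrier Smad3 had 680, 766 and 559 counts in heart and 1639, 2935 and 1379 counts in quadriceps, a log2 fold change of 2.62 (SE 0.24, adjusted p = 9.87e-06). Smad3 was above heart in every quadriceps library even before scaling. Its partner Smad2 was not called with TMM (-0.24, adjusted p = 0.0623) and was lower with library totals (-0.99), and Smad4, which both need, went from 0.27 with TMM to -0.49 with library totals. The inhibitory Smad7 (-1.38, SE 0.14), the ubiquitin ligase Smurf1 (-1.26, SE 0.11) and the decoy receptor Bambi (-3.45, SE 0.20) were lower in quadriceps with both scalings. Smurf2, of the same family as Smurf1, was not called with TMM (-0.04, adjusted p = 0.713) and was lower with library totals (-0.79, adjusted p = 0.000130).

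The processing enzymes Furin, which cleaves the precursor, and Bmp1, whose family frees myostatin from its prodomain, were lower in quadriceps, by -1.60 (SE 0.11) and -1.01 (SE 0.12) on the log2 scale. Tll2, of the same family as Bmp1, had 38, 36 and 26 counts in heart and 0, 0 and 1 counts in quadriceps, at least 5.23-fold higher in heart. The binder Wfikkn2, a myostatin and GDF11 antagonist, was higher in quadriceps (1.23, SE 0.20, adjusted p = 0.000410), and Fstl4 was at least 8.70-fold higher in heart, with 58, 68 and 41 counts against 0 in every quadriceps library. Of the others, Inha (-1.80) and the co-receptor Tgfbr3 (-0.68) were lower in quadriceps, and Ltbp3 went from 0.52 with TMM to -0.23 with library totals. The proteoglycan gene Dcn was not called with TMM (-0.18, adjusted p = 0.272) and was lower with library totals (-0.92, adjusted p = 0.00156), and Tll1 was called with neither (adjusted p = 0.102 and 0.811). The Gdf15 receptor gene Gfral had 0 counts in all 6 libraries, and its partner Ret was not called with TMM (0.15, adjusted p = 0.511) and was lower with library totals (-0.59, adjusted p = 0.0293).

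**Figure D2:**
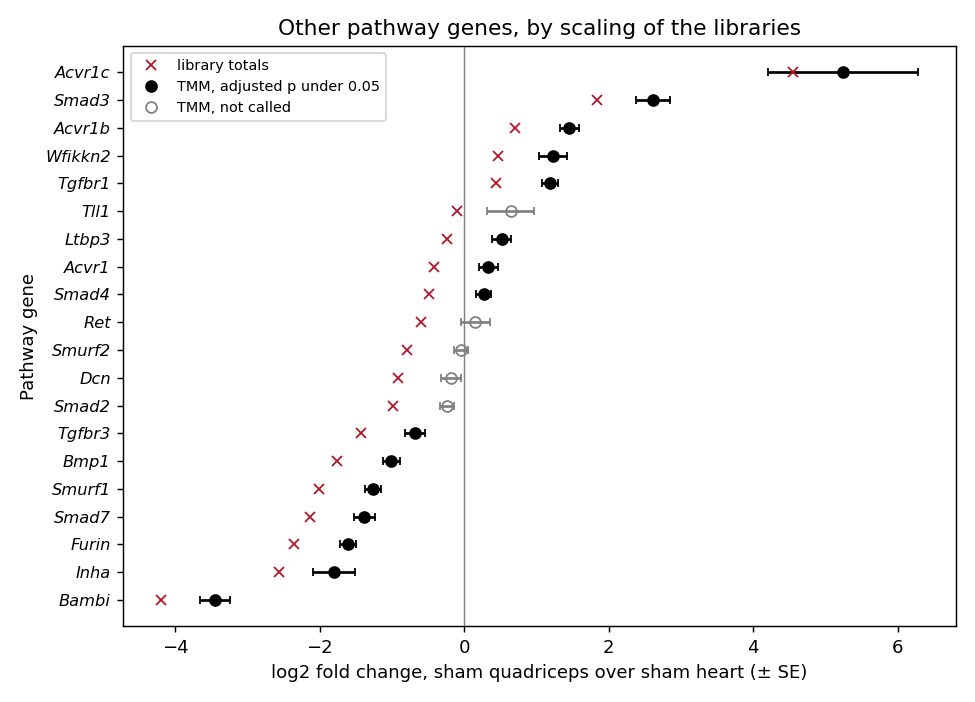
Log2 fold changes of the pathway genes that were tested, sham quadriceps over sham heart, with TMM scaling (circles, bars are the SE, filled where the adjusted p was under 0.05) and with library totals (crosses). Tll2 and Fstl4 are left out because their quadriceps counts were at or under 3, and Ltbp3, Acvr1, Smad4, Tll1 and Ret change direction between the scalings.

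To see whether the ligands and their binders change in skeletal muscle under chronic pressure overload of the heart, TAC quadriceps was compared with sham quadriceps. Mstn was higher and Fstl1 lower after TAC, and Gdf11 and Fst did not pass the test. The Fstl1 result held under every alternative tried, and the Mstn result did not. Of the 4 members, 1 was called higher and 1 lower (edgeR quasi-likelihood test with TMM, adjusted over 586 genes), where 17.7% of all genes tested were higher and 11.9% lower. Library totals were used for 5 of the 6 libraries, leaving out TAC library 4. With them, 0 members were higher and 2 lower, against 3.41% and 30.7% of all genes. The median log2 fold change of all genes was 0.03 with TMM and -0.63 with library totals, the table being a selection of secreted-protein genes, and that of the 4 members was -0.40 and -1.17.

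Mstn had 1965, 2430 and 1336 counts in the sham libraries and 9216, 3735 and 2620 counts in TAC libraries 1, 2 and 4. As normalized counts these were 1597, 2456 and 1837 after sham surgery and 8927, 3655 and 2624 after TAC. All TAC libraries were above all sham libraries, as in 47.3% of the genes tested in either direction, but TAC library 1 stood far above the others and TAC library 4 was close to the highest sham library. The means were 1963 ± 443 and 5068 ± 3381 (SD, n = 3), a log2 fold change of 1.37 (SE 0.44, adjusted p = 0.0456), which ranked 34 of 586.

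Without TAC library 1, the log2 fold change of Mstn was 0.61 (SE 0.25) and no longer passed the test (adjusted p = 0.117). Leaving out sham library 1, 2 or 3 also ended the call (adjusted p = 0.162, 0.0824 and 0.115), with log2 fold changes of 1.22 to 1.56. Over all 586 genes, 25, 35 and 34 were called higher in these fits, against 104 with all libraries. Without TAC library 1, 62 were. Scaled by library totals, Mstn was at 60.2, 73.7 and 57.1 CPM after sham surgery and at 190 and 76.2 CPM in TAC libraries 1 and 2. Here TAC library 2 exceeded the highest sham library only narrowly. The log2 fold change was then 1.06 (SE 0.36, adjusted p = 0.0531), and 0.26 (SE 0.23, adjusted p = 0.416) without TAC library 1. The direction was upward in all 18 alternatives, and 9 of them ended the call, with adjusted p-values from 0.00278 to 0.416 over the 18. Among these 18, TMM on the 5 libraries scaled by totals and TMM without TAC library 4 were the same fit, which kept the call.

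**Figure D3:**
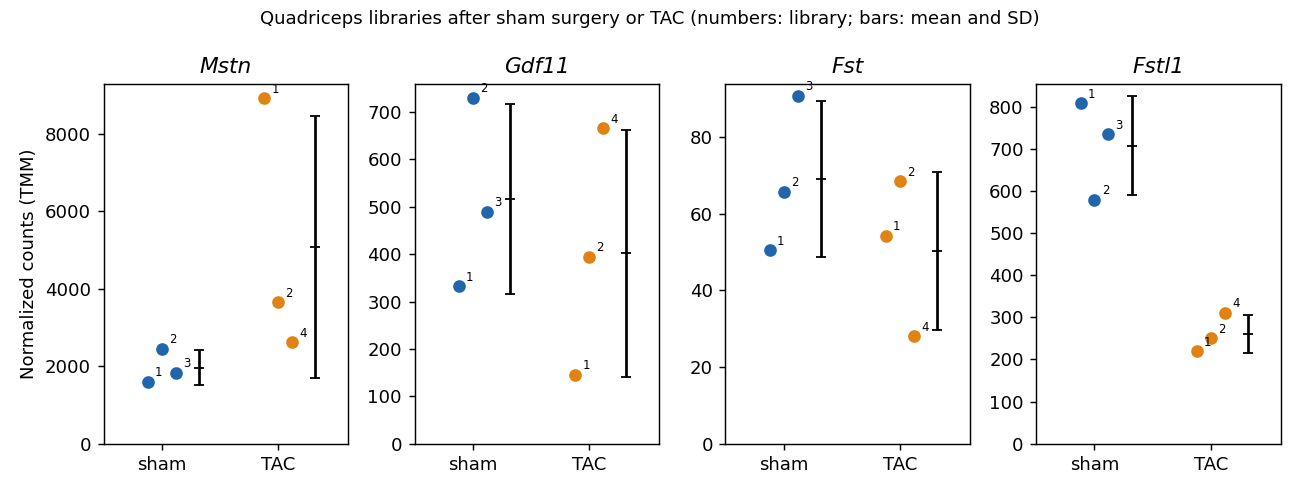
Normalized counts (TMM) of Mstn, Gdf11, Fst and Fstl1 in the 3 sham and 3 TAC quadriceps libraries, each point labelled with its library number, with the mean and SD as bars. For Mstn, TAC library 1 at 8927 normalized counts sets most of the mean, whereas for Fstl1 all 3 TAC libraries lie between 220 and 310 normalized counts, below the lowest sham library at 579.

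Gdf11 had 409, 723 and 356 counts after sham surgery and 150, 403 and 665 counts in TAC libraries 1, 2 and 4. The TAC libraries ran from below the lowest to near the highest sham library, so the groups overlapped. With TMM the log2 fold change was -0.36 (SE 0.51, adjusted p = 0.617). With library totals, and so without TAC library 4, it was -1.55 (SE 0.46, adjusted p = 0.0373), while with TMM on the same 5 libraries it was -1.05 and not called (adjusted p = 0.138). TAC library 1, which had the most Mstn, had the least Gdf11.

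Fst was at 62, 65 and 66 counts after sham surgery and at 56, 70 and 28 counts in TAC libraries 1, 2 and 4. The groups overlapped, with TAC library 4 the lowest. The normalized means were 68.9 ± 20.4 and 50.3 ± 20.5 (SD, n = 3), a log2 fold change of -0.44 (SE 0.38, adjusted p = 0.412). The difference was within the spread of the libraries.

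Fstl1 had 994, 573 and 534 counts after sham surgery and 227, 256 and 310 counts in TAC libraries 1, 2 and 4. Although the counts over all listed genes were higher in the TAC libraries (1166978 to 1326011) than in the sham libraries (689630 to 1006148), each TAC library had fewer Fstl1 counts than any sham library. The normalized means were 707 ± 117 and 260 ± 46.1 (SD, n = 3), so that Fstl1 fell by 1.44 on the log2 scale (SE 0.24, adjusted p = 0.00676). It was called lower in all 18 alternatives, the repeated fit included, with log2 fold changes from -2.33 to -1.37.

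Cell type markers moved in the same libraries. Of the 4 fibroblast markers in the table, Col1a1, Col3a1 and Lum were lower after TAC and Dcn was not called. Their summed level, mostly that of Dcn, was 8860 to 11346 normalized counts after sham surgery and 5827 to 8936 after TAC. Col1a1 alone had 857, 571 and 554 counts against 53, 67 and 88. Col3a1 had 3028, 1722 and 1987 against 118, 218 and 121, and Lum 916, 532 and 382 against 91, 169 and 104. The macrophage marker Lyz2 was lower as well (485 to 705 against 195 to 301 normalized counts), and the endothelial markers Pecam1 and Vwf were both higher (917 to 1048 against 1504 to 1589). The 3 adipocyte markers were not called (315 to 2302 against 415 to 2860). Ckm, the muscle creatine kinase and the 1 skeletal muscle fibre marker in the table, was not called either (288265 to 471788 against 428576 to 604226). The part of these cell types in the lower Fstl1 and the higher Mstn was not tested.

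**Figure D4:**
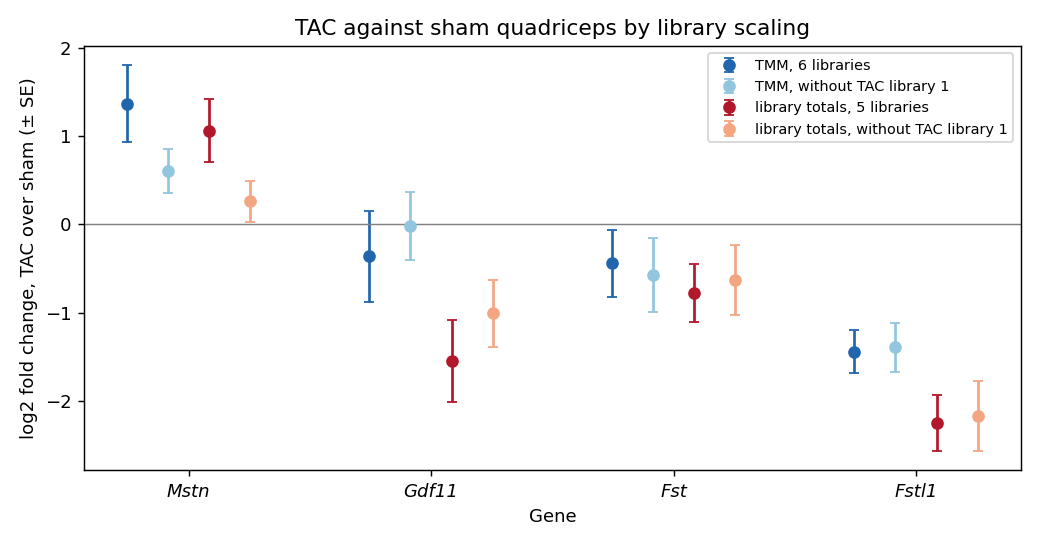
Log2 fold changes of the 4 genes, TAC over sham quadriceps, with TMM or library totals and with or without TAC library 1 (bars are the SE). Fstl1 ranges from -2.25 to -1.40 over these settings, and Mstn goes from 1.37 to 0.26.

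Ratios between genes of the same library do not depend on the scaling. The ratio of Mstn to Fst counts per base was 30.0, 35.3 and 19.1 after sham surgery and 156, 50.5 and 88.5 in TAC libraries 1, 2 and 4. All TAC libraries were above all sham libraries, a log2 difference of 1.70. The ratio of Mstn to Fstl1 was 2.63, 5.65 and 3.33 after sham surgery and 54.1, 19.4 and 11.3 after TAC, again without overlap, a log2 difference of 2.63. For both, the two-sided exact permutation p was 0.1, the smallest possible with 3 against 3 libraries (adjusted p = 0.129 over 9 ratios). The ratio of Mstn to Gdf11 was 10.4, 7.25 and 8.10 after sham surgery and 133, 20.01 and 8.50 after TAC, where TAC library 4 fell within the sham range (exact permutation p = 0.2, adjusted p = 0.225). The ratio of Mstn to its binder Wfikkn2 overlapped between the groups (exact permutation p = 0.9, log2 difference 0.24).

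**Figure D5:**
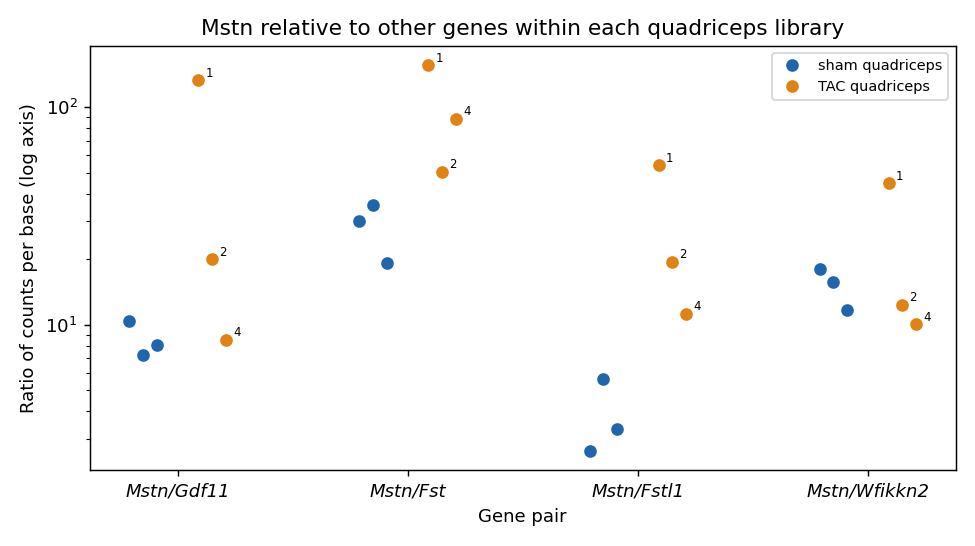
Counts per base of Mstn divided by those of Gdf11, Fst, Fstl1 and Wfikkn2 in each sham and TAC quadriceps library (log axis, TAC points labelled with the library number). The TAC libraries lie above the sham libraries for Fst (50.5 to 156 against 19.1 to 35.3) and for Fstl1, and overlap them for Gdf11 and Wfikkn2.

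The table of secreted proteins held 4 of the 27 other pathway genes. With TMM, 2 were higher after TAC, 0 were lower and 2 were not called, and with library totals 0 were higher, 1 was lower and 3 were not called. Of all genes tested, 17.7% were higher and 11.9% lower with TMM, and 3.41% and 30.7% with library totals, so counts over 4 genes say little about the list. Tgfbr3, the co-receptor betaglycan that presents TGF-beta and inhibin, had 446, 436 and 229 counts after sham surgery and 1955, 668 and 787 counts after TAC. As for Mstn, TAC library 1 was the highest (log2 fold change 1.58, SE 0.41, adjusted p = 0.0217, and adjusted p = 0.0714 with library totals). Wfikkn2 had 136, 194 and 143 counts against 259, 380 and 327, with all TAC libraries higher (0.92, SE 0.30, adjusted p = 0.0495, and adjusted p = 0.474 with library totals). Bmp1 was not called with TMM (-0.76, adjusted p = 0.0660) and was lower with library totals (-1.61, adjusted p = 0.0121), and Dcn was not called with either.

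The genes most like a member were those with the smallest root-mean-square distance between log2 levels, each centred on its own mean over 6 libraries. Over the 6 quadriceps libraries, among 583 other genes, Mstn was nearest to the serine protease Htra1 (distance 0.18), the galectin Lgals4 (0.24) and Tgfbr3 (0.28). Fstl1 was nearest to the extracellular superoxide dismutase Sod3 (0.14), the collagen VI chain Col6a3 (0.15) and the matrix protein Dpt (0.17), and Fst to Actg1, Soga1 and Akr1b3 (0.20 to 0.23). Over the 6 sham libraries of both tissues, among 12687 other genes, Mstn was nearest to the fast skeletal myosin light chain Myl1 (0.07), Fst to Tob1 (0.15) and Fstl1 to Peak1 (0.06). These distances describe 6 libraries that share their scaling.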

How the data were processed

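The 9 libraries were grouped by the sample labels into sham heart, sham quadriceps and TAC quadriceps. Per the study's methods, mRNA libraries were made with ScriptSeq v2, sequenced as single-end reads, trimmed with Trim Galore!, aligned with STAR to mm10 and counted with Rsubread. The authors deposited raw counts per RefSeq transcript, together with RPKM values (counts per transcript length and library total). Columns with the authors' own fold changes, F scores and p-values were not used. A TAC count column numbered 4, where the labels run to 3, was used as a TAC quadriceps replicate with no pairing, and 1 library column, its RPKM values, was left unused.

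The test was that of edgeR 4.0.16 (R 4.3.3), on transcripts counted over 5 times in 2 or more libraries (TMM, quasi-likelihood test, Benjamini-Hochberg adjustment over all tested features, called at an adjusted p under 0.05). Library totals were recovered from counts, lengths and RPKM values. For genes with several transcripts, that with the highest mean count was reported. Where every library of a group had 3 counts or fewer, folds were taken against a floor of 3 counts per library, which covers counting error only. Ratios used exact permutation tests. Alternatives were DESeq2 1.42.0 (test and size factors), library totals, other filters, limma 3.58.1 on log2(RPKM + 0.5) or log2(RPKM + 0.1), the study's criterion, 1 transcript a gene, a replicate block and leaving out each library. Chosen after seeing the data were TMM on the 5 libraries scaled by totals, library totals without TAC library 1 or 2, and the ratios. The procedure was tested on simulated counts with the same dispersion for every transcript and planted changes balanced in both directions. That simulation was not matched to the spread between these libraries, so it cannot decide any call made here. Replicates differed by more than sampling noise (lowest chi-square per degree of freedom 7.40, between heart libraries 1 and 2). Over the secreted-protein genes it was 17.5 to 74.0 between sham quadriceps libraries and 102 to 134 between TAC quadriceps libraries.

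The members, the pathway list and the marker lists were chosen with earlier results of these data known. The genes named are all members, the pathway genes called in a comparison, the 3 nearest genes of Mstn, Fst and Fstl1 by pattern, and the markers. Pathway genes not called and Gfral are named to complete their counts. Schwann cell markers, 2 of 3 higher in quadriceps (25.3 to 27.2 against 3.05 to 4.26 CPM), complete the 7 marker lists. Same-numbered sham heart and quadriceps libraries deviated from their group means with correlations of 0.05, -0.05 and 0.04, so the numbers were not taken as pairs. Figures were drawn with Python 3.11.15 and matplotlib 3.10.9.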

Additional observations from a re-analysis of the deposited data

How the results depend on the processing

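In the tissue comparison, the members other than Inhba kept their direction and their call under every alternative that gave a value, except that the study's criterion left 4 members higher instead of 5 and 1 lower instead of 4. Mstn and Gdf15 gave no value under some filters or with heart libraries left out. After TAC, the count of members higher went from 1 to 0 with library totals, with at least 10 counts in every library, with limma on RPKM at either pseudocount and with library totals without TAC library 1, and it ranged from 0 to 1 over the fits that left out 1 library. The count of members lower went from 1 to 2 with library totals, with limma on RPKM at either pseudocount and with library totals without TAC library 2, Gdf11 being the added gene. The log2 fold change of Fst turned from -0.44 to 0.083 in the 4 quadriceps libraries numbered 1 and 2, both with a replicate block and without it (adjusted p = 0.945 and 0.924, edgeR), and the cause was not tested. The replicate block left Mstn called after TAC in these 4 libraries (log2 fold change 1.53). In the tissue comparison, the block turned the call of Inhba (-0.75, adjusted p = 0.0434, edgeR) and no other member's. Same-numbered sham and TAC libraries showed correlations of 0.08 and -0.16, and the numbers were not taken as pairs. So few correlations cannot exclude a pairing. With 3 libraries a group, 1 library can decide a call, and that of Mstn after TAC was lost without TAC library 1 or any 1 of the sham libraries.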
